A study of Mus musculus with 18 samples.

Results

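The posterior palate was compared with the anterior palate of control mouse embryos at embryonic day 15.5. The 12 arrays were chosen by their titles, 6 of control anterior and 6 of control posterior palate, out of 18 arrays in the series, and the 6 arrays of mutant posterior palate were not part of the fit. Both groups were of strain C57BL/6J and genotype Tgfbr2 fl/fl, that is, both alleles of the gene for a TGF-beta receptor carried the sites at which Cre recombinase cuts, without the K14-Cre transgene that the mutants carried, so the receptor was left intact. The sample source field calls the same model wild type. Sex was recorded as not determined. The design text gives 5 samples for each region where the titles list 6, and all 6 were used. The labels leave unsaid if a sample holds 1 embryo or several, and if arrays come from separate embryos, so the p-values measure the spread between these arrays, which may in part be technical. Total RNA of dissected tissue was labelled and hybridised to Affymetrix 1-colour arrays, and the deposited values are log2 expression levels. A difference of 1 on this scale is a 2-fold difference. The study was designed around the loss of Tgfbr2 in the epithelium and its effect on the exchange between epithelium and muscle fibres. The control regions alone show how the back of the palate, where muscle forms, differs from the front when the receptor is intact.

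The palate separates mouth and nose and grows from shelves of neural crest mesenchyme covered by epithelium, oral on one face and nasal on the other. The front becomes the hard palate, supported by bone, and the back becomes the soft palate, whose muscles lift and tense it in swallowing and speech. Those muscle cells descend from mesoderm of the head and enter a tendon and connective tissue scaffold made by the neural crest. Transcription factors drawn from different families mark mesenchyme along this axis, and signals of the SHH, BMP, FGF, WNT and retinoic acid pathways pass between mesenchyme and epithelium while the shelves grow.

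The labelled regions were first set against their marker genes. Alx1, a homeobox factor of frontonasal and maxillary mesenchyme, read 10.15, 10.52, 10.05, 8.92, 9.33 and 9.25 in anterior arrays 1 to 6 and 6.32, 6.30, 5.65, 6.00, 6.45 and 5.99 in posterior arrays 1 to 6. It was 12-fold lower in posterior palate (log2 -3.59, SE 0.25, adjusted p = 3.67e-06, limma). Every anterior array lay above every posterior array. Msx1, a homeobox factor of anterior palatal mesenchyme, read 9.72, 9.61, 9.44, 8.5, 8.97 and 10.26 in anterior and 7.14, 6.59, 6.11, 6.31, 7.0 and 6.19 in posterior arrays, a 7.27-fold lower level (log2 -2.86, SE 0.27, adjusted p = 1.89e-05, limma). Shox2, which is required in the anterior palate, read 11.74, 11.20, 11.16, 11.19, 10.44 and 11.26 in anterior and 9.13, 9.13, 8.39, 8.27, 9.08 and 8.62 in posterior arrays (log2 -2.40, SE 0.21, adjusted p = 1.12e-05, limma). Neither gene overlapped between the regions, and the second probe set of Alx1 (-3.23), Msx1 (-1.22) and Shox2 (-2.67) was also called lower when every probe set was tested.

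The posterior markers ran the other way. Meox2, a homeobox factor of posterior palatal mesenchyme, read 8.25, 8.10, 7.94, 7.96, 7.78 and 8.66 in anterior and 10.85, 11.04, 11.13, 10.85, 11.24 and 10.92 in posterior arrays. It was 7.40-fold higher in posterior palate (log2 2.89, SE 0.13) and had the smallest p of all genes tested (adjusted p = 1.22e-07, limma). Its levels were the most even of the 7 markers, with an SD of 0.31 in anterior and 0.16 in posterior arrays (n = 6 each), and the difference was 2.91 in arrays 1 to 3 and 2.87 in arrays 4 to 6. Tbx22, a T-box factor mutated in X-linked cleft palate, read 6.60, 8.49, 7.88, 6.30, 6.41 and 6.52 in anterior and 8.88, 8.99, 8.93, 8.88, 9.43 and 8.63 in posterior arrays (log2 1.92, SE 0.34, adjusted p = 0.00318, limma). The posterior arrays were close together, and anterior arrays 2 and 3 came within 0.50 and 1.06 of the posterior array of equal number. In arrays 1 to 3 alone Tbx22 differed by 1.28 and was not called (adjusted p = 0.174, limma), and in arrays 4 to 6 alone it differed by 2.57 (adjusted p = 0.00723, limma).

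**Figure D1:**
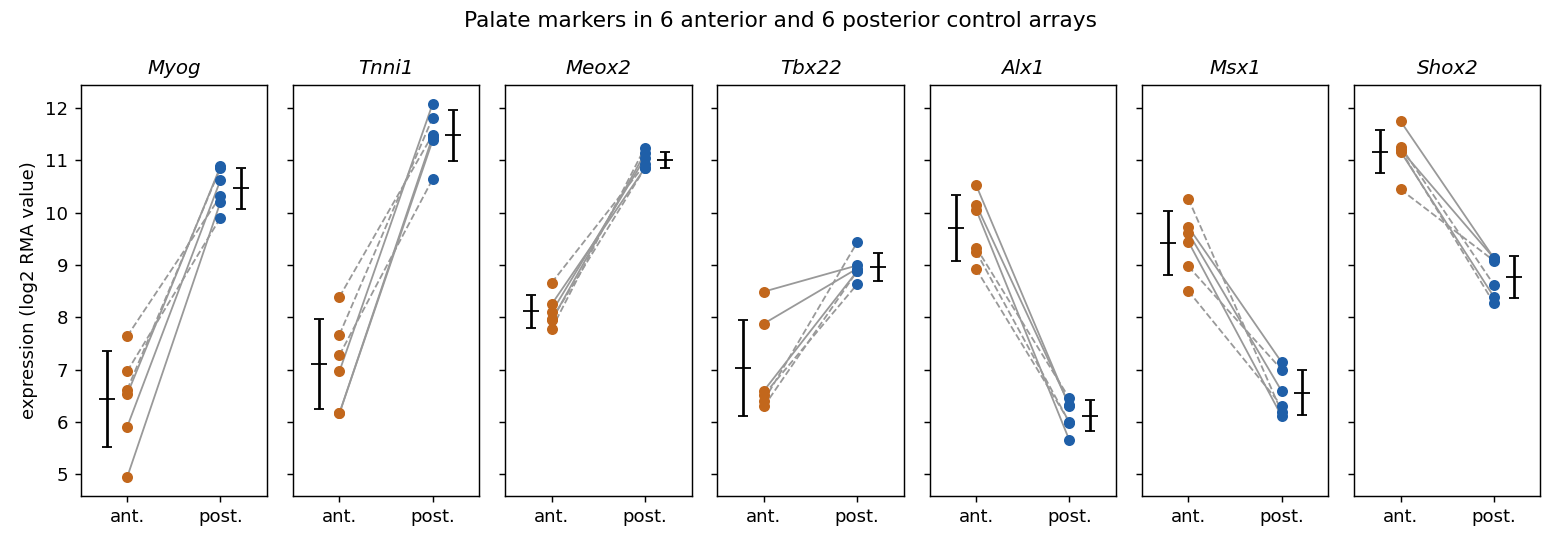
Expression on the deposited log2 scale of the 7 marker genes in each of the 6 anterior (left) and 6 posterior (right) control arrays; bars give mean and SD, and lines join arrays of equal replicate number (solid for 1 to 3, dashed for 4 to 6). For every gene the points of the regions do not overlap, and Meox2 shows the tightest posterior group, from 10.85 to 11.24.

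Correlations over all genes lay between 0.9844 and 0.9947 among anterior and between 0.9902 and 0.9973 among posterior arrays. Level differences between genes raise such values, and no correlation between the regions is set beside them. Arrays 1 to 3 and arrays 4 to 6 formed separate sets in both regions: the labelling spike-in controls averaged 9.56 to 9.84 in the first set and 10.71 to 11.50 in the second. Each set held 3 arrays of each region, so results are also given within sets. Anterior arrays differed between the sets in the markers too. Myog averaged 5.8 in anterior arrays 1 to 3 and 7.08 in 4 to 6, Alx1 10.24 and 9.16, and Tbx22 7.66 and 6.41, while the posterior means of the sets were 10.57 and 10.36, 6.09 and 6.15, and 8.93 and 8.98. Xist and the Y-linked genes Eif2s3y, Kdm5d and Uty gave the same pattern in both regions for all 6 replicate numbers. In array 1 of both regions Xist (10.07 and 10.69) was high together with Eif2s3y (7.59 and 7.16).

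Across 18193 genes, 2148 (11.8%) passed an adjusted p of 0.05 (Benjamini-Hochberg, termed called), of which 854 (4.69%) were higher and 1294 (7.11%) lower in posterior palate. The larger differences pointed mostly the other way. Of the 230 genes (1.26%) that were called and differed at least 2-fold, 170 (0.934%) were higher and 60 (0.33%) lower in posterior palate, and at 8-fold or more 35 were higher and 1, Alx1, was lower. Among calls under 1.5-fold, 528 were higher and 1043 lower. That split depended on scaling: 39.8% of calls were higher as deposited, 72.0% with each array centred on its median, and 50.2% with quantile normalization repeated, whereas the 2-fold counts came to 231 and 235 with those scalings. Direction also differed with level. Among the 9096 dimmer genes 555 were called higher and 425 lower (median 0.037), and among the 9097 brighter genes 299 and 869 (median -0.064). The 6 values of each region did not overlap for 1145 genes (6.29%), with posterior arrays on top for 475 (2.61%) and anterior arrays on top for 670 (3.68%).

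The sets of arrays are parts of the 12 arrays that chose these 230 genes, so an equal direction within them was largely fixed by the choice and is given as a description. All 170 genes that were at least 2-fold higher differed in that direction within each set of 3 and 3, 137 of them by 2-fold or more in both sets, and 165 were higher in posterior palate in all 6 pairs of equal replicate number. All 60 genes that were at least 2-fold lower kept their direction within each set, and 31 reached 2-fold in both. Within each set of 3 and 3, 100 of the 170 and 21 of the 60 were called in both. Calls held in every fit without 1 array for 166 of the 170 and 51 of the 60. Where an array is named below for an ended call, its omission gave the highest adjusted p. Omitting other arrays may have ended the call too. With replicate number as a block, 169 of the 170 and 58 of the 60 were called. Of the 170 genes 68 belonged to the 3 lists of skeletal muscle genes described next and 102 did not. The lists do not hold every muscle gene, so the 102 are not all genes outside muscle. Among them, named after their values were seen, were Myot (3.37), Smpx (3.24), Srpk3 (3.21) and Csrp3 (2.75), known from striated muscle. Of the 60 genes 1 was in a muscle list and 5 were in the lists of basal and stratified epithelium.

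**Figure D2:**
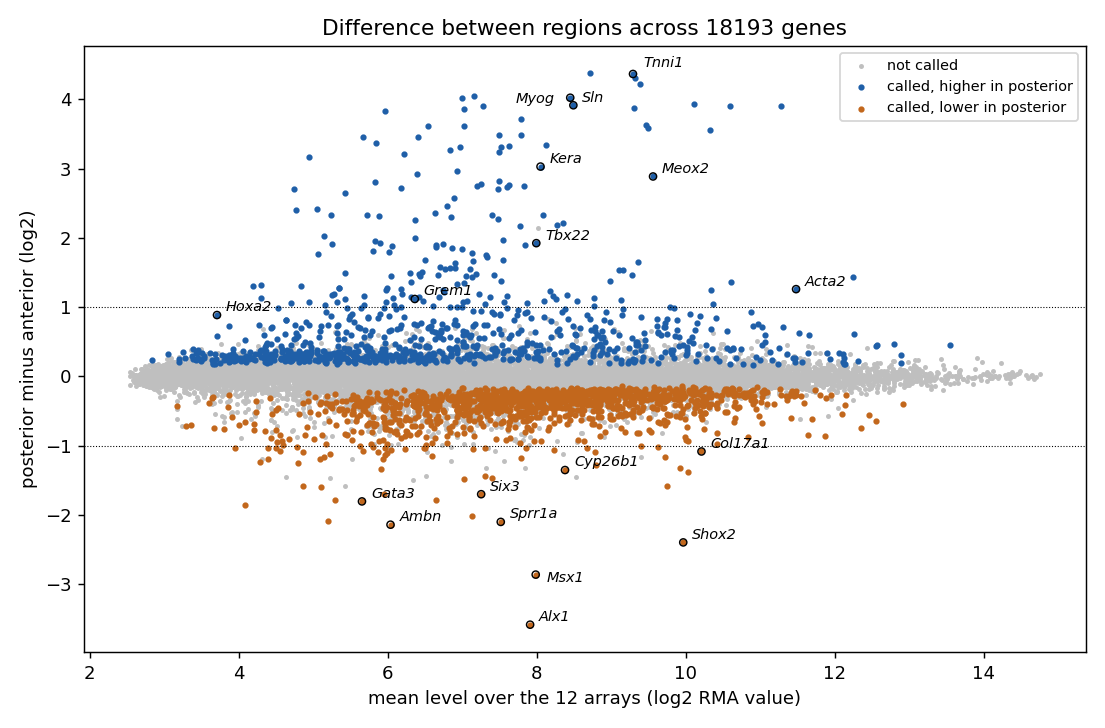
Posterior minus anterior difference (log2) against the mean level over the 12 arrays (log2) for 18193 genes, with genes called higher in posterior palate in blue, genes called lower in orange and all others in grey; dotted lines mark a 2-fold difference. Of the called genes 170 lie above the upper line and 60 below the lower line, and some uncalled genes lie beyond the lines too. Among called genes Alx1, Msx1 and Shox2 lie farthest down.

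**Figure D3:**
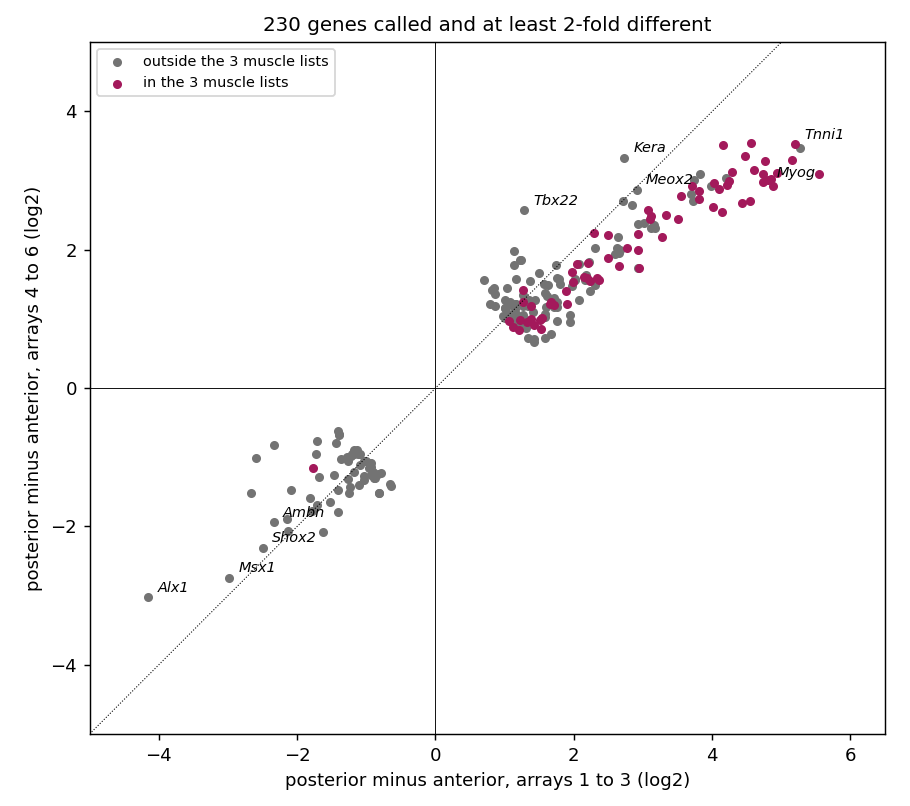
The 230 genes called and at least 2-fold different, with the posterior minus anterior difference (log2) in arrays 1 to 3 on the horizontal and in arrays 4 to 6 on the vertical axis; the dotted line marks equal differences. All points lie at the upper right or lower left. Tnni1 lies below the line, with 5.20 against 3.53, and Kera and Tbx22 lie above it.

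Skeletal muscle genes made up the strongest group. Of 116 measured genes in the 3 muscle lists, 85 were higher and 4 lower in posterior palate. That was 76.7% called, beside 11.8% of all genes. Their median difference was 1.26 where all genes had -0.02. Among 45 sarcomere genes 39 were higher and none was lower, with a median of 2.81, and 35 of them differed at least 2-fold. Sarcomeres are the contractile units of striated muscle, built of thick myosin and thin actin filaments. In bulk tissue a lower level can reflect fewer cells of a type or less RNA per cell, which cannot be told apart here.

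Tnni1, slow troponin I of the calcium switch on thin filaments, read 6.17, 6.17, 6.97, 8.39, 7.28 and 7.67 in anterior and 11.45, 11.38, 12.08, 11.49, 10.64 and 11.81 in posterior arrays. It was 20.6-fold higher in posterior palate (log2 4.37, SE 0.36, adjusted p = 8.6e-06, limma). The lowest posterior array, number 5, was above the highest anterior array, number 4. The myosin heavy chains of embryonic muscle, Myh3 (log2 4.32, SE 0.52), and of perinatal muscle, Myh8 (4.03, SE 0.39), differed similarly. Myh3 ranged from 5.58 to 9.07 in anterior and from 10.56 to 11.97 in posterior arrays. Myosin light chains Myl1 (3.93), Mylpf (3.91) and Myl4 (3.88), troponin C Tnnc1 (4.23), the giant spring protein titin, Ttn (3.91), cardiac actin, Actc1 (3.90), which embryonic skeletal muscle also uses, and the M-line protein Myom2 (3.86) completed the sarcomere genes among the 15 largest increases. Lmod3, a nucleator of thin filaments, was higher by 3.16 on the log2 scale (adjusted p = 5.29e-06, limma). Its anterior readings of 3.06 to 3.99 lay under the array medians of 5.74 to 5.8, where background can enter, and no detection call was used, so no fold is given.

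The 6 sarcomere genes without a call, named after their values were seen, were the adult fast myosins Myh4 (0.17) and Myh2 (0.16), the fast myosin binding protein Mybpc2 (-0.09) and the tropomyosins Tpm1 (-0.11), Tpm3 (-0.13) and Tpm2 (-0.15), which also have isoforms outside muscle. For each tropomyosin other probe sets gave another answer. When every probe set was tested, Tpm2 had others at 1.10 (adjusted p = 2.95e-05, limma) and 0.81, Tpm1 at 0.66 and 0.50, and Tpm3 at 0.45 and 0.35, all called higher. Of 27 muscle-list genes not called by their brightest probe set, 5 had another probe set called higher. Which transcripts these probe sets detect was not tested.

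Among 30 genes of muscle calcium handling and energy use, 21 were higher and 1 lower, with a median of 1.04. Sln, sarcolipin, which inhibits the calcium pump, ranged from 5.59 to 7.39 in anterior and from 9.61 to 11.11 in posterior arrays (log2 3.92, SE 0.29, adjusted p = 6.25e-06, limma). The calcium store protein Casq2 (3.49), muscle creatine kinase Ckm (2.33), the glycolytic enzyme Pgam2 (2.22), sarcalumenin Srl (2.19) and the excitation coupling protein Stac3 (2.00) were also higher, and none of the 6 overlapped between the regions. The gene called lower, named after its value was seen, was Atp2a2, the calcium pump of slow muscle and of many other cells (-0.28, adjusted p = 0.0248, limma). Its other probe sets included 2 that were called higher (0.63 and 0.49).

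Of 41 myogenic factors and genes of myoblast fusion and nerve contact, 25 were higher and 3 lower, with a median of 0.63. Myog, the factor that starts muscle differentiation, read 5.91, 4.95, 6.53, 7.64, 6.97 and 6.62 in anterior and 10.62, 10.20, 10.88, 10.31, 9.90 and 10.85 in posterior arrays (16.3-fold, log2 4.02, SE 0.36, adjusted p = 1.28e-05, limma). The regions were separated by more than 2 log2 units between array 4 of the anterior and array 5 of the posterior group. Myf5 (3.83) and Myod1 (2.92), which commit cells to the muscle lineage, and Mymx (4.05), a small membrane protein that fuses myoblasts, were higher with no overlap. Anterior readings of Myf5 (3.39 to 4.88) and Myod1 (4.21 to 5.43) also lay under the array medians. So did the anterior means of Mymx (5.13), Myh8 (4.98), Ttn (5.32), Myom2 (5.10) and Stac3 (5.36). Klhl41 (3.62), a sarcomere stabilising protein, and Cav3 (3.31), the caveolin of muscle membranes, were higher too. Their anterior means of 4.73 and 5.31 were under the array medians as well. Pax7, a factor of muscle stem cells and of neural crest, was higher (log2 0.90, SE 0.15, adjusted p = 0.00234, limma). Its anterior readings of 4.73 to 5.47 lay under the array medians, so no fold is given.

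The 3 genes called lower in the myogenic list were Pax3 (-1.46), Eya1 (-0.75) and Met (-0.36), of which the last 2 were named after their values were seen. All 3 act in muscle precursors that migrate into limbs, and Pax3 and Eya1 act in neural crest as well. Pax3 ranged from 7.51 to 8.78 in anterior and from 6.36 to 6.97 in posterior arrays (SE 0.19, adjusted p = 0.000293, limma), without overlap, and its other probe sets read -1.86 and -1.74. Muscle levels in the anterior tissue moved with the array set. The mean of the sarcomere list was 6.05, 5.78 and 6.23 in anterior arrays 1 to 3 and 7.08, 6.42 and 6.59 in arrays 4 to 6, against 8.15 to 9.16 in posterior arrays. The list's median difference was 3.07 in arrays 1 to 3, with 39 higher calls, and 2.44 in arrays 4 to 6, with 26, and the cause was not tested.

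Promoters of 4 of these genes are shown because muscle genes moved together and because each carries a motif that factors of the muscle lineage are known to bind. The stretches run from 250 bases before to 50 bases after the transcription start, 5′ to 3′ on the strand of the gene, from RefSeq on build GRCm38.p6. Capitals mark the motif: a CArG box, bound by SRF, 47 bases before the start of Actc1 (chr2:114052826-114053125, minus strand), a MEF2 motif 99 bases before the start of Myh8 (chr11:67276874-67277173, plus strand), the E-box CAGCTG, of the kind MYOD1 and MYOG bind, 127 bases before the start of Klhl41 with a MEF2 motif 63 bases before it (chr2:69669870-69670169, plus strand), and CAGCTG 51 bases before the start of Mylpf (chr7:127211358-127211657, plus strand).
Actc1: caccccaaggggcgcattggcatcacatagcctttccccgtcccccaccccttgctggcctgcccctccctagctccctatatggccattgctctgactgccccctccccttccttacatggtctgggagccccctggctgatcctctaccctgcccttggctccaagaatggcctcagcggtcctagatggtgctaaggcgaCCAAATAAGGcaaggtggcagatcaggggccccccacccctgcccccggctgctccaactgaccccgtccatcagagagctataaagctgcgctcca
Myh8: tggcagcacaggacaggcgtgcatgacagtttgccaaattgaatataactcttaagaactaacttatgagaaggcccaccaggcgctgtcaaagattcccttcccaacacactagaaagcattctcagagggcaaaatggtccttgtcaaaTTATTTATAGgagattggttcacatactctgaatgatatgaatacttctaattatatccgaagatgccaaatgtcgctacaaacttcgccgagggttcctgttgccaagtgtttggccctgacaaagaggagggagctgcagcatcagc
Klhl41: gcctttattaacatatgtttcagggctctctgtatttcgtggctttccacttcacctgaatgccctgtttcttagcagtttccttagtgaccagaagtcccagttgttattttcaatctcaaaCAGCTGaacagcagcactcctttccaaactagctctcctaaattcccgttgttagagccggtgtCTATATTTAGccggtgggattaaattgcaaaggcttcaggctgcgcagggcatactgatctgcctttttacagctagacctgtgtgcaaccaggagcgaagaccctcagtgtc
Mylpf: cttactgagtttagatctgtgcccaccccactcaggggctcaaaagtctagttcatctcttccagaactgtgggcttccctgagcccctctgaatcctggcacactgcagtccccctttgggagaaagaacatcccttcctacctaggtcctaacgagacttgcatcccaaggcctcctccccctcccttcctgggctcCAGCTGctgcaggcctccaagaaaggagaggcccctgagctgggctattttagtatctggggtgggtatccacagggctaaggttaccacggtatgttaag
Of the 68 muscle-list genes that were at least 2-fold higher, 46 had a promoter in the table. CAGCTG, which reads the same on both strands, was in a promoter of 21 of these 46 genes (45.7%). It was in a promoter of 18.8% of the 14452 tested genes that had one in the table. A MEF2 motif was in 8 (17.4%, against 2.51%), a CArG box in 5 (10.9%, against 1.58%), and any of the 3 in 30 (65.2%, against 21.9%), with both strands searched and no overlap between motifs in the 4 promoters shown. A match describes the sequence and is not a measured binding site.

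Of 15 factors of anterior palatal and craniofacial mesenchyme 53.3% were called, beside 11.8% of all genes, with a median of -0.54. In posterior palate 7 were lower and 1 higher. Besides Alx1, Msx1, Shox2 and Pax3 these were the zinc finger homeobox gene Zfhx4 (-0.78) and, named after their values were seen, Tfap2a (-0.73), an AP-2 factor of neural crest and epithelium, and Prrx1 (-0.61), a homeobox factor of craniofacial mesenchyme. Zfhx4 ranged from 9.46 to 10.29 in anterior and from 8.88 to 9.30 in posterior arrays (SE 0.14, adjusted p = 0.00282, limma) and did not overlap. The member that was higher was Pax7, which the muscle list holds as well. With median centring 3 members were higher and 7 lower.

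Of 19 factors of posterior palatal and arch mesenchyme, 9 were higher and 1 lower, with a median of 0.39. The share called was 52.6%, beside 11.8% of all genes. Tbx15, a T-box factor of craniofacial and limb mesenchyme, ranged from 6.01 to 7.48 in anterior and from 7.50 to 8.76 in posterior arrays (log2 1.46, SE 0.26, adjusted p = 0.00367, limma). The gap between highest anterior and lowest posterior array was narrow. Nr2f1, a nuclear receptor known as COUP-TFI, lay between 10.81 and 11.03 in posterior arrays and between 9.04 and 10.28 in anterior arrays (log2 1.24, SE 0.17, adjusted p = 0.000394, limma). Barx1, a homeobox factor of the posterior palate and molar region, was 1.71-fold higher (log2 0.77, SE 0.14, adjusted p = 0.00325, limma), with posterior array 5 at the level of anterior array 6 (10.24). Foxc2, a forkhead factor of arch mesenchyme, was higher by 1.14 (adjusted p = 0.0488, limma). Its call ended without any 1 of 11 arrays, up to adjusted p = 0.103 without posterior array 6. Foxc2 read 7.81 in anterior array 2, above all 6 posterior arrays, and 5.23 to 6.14 in the other anterior arrays.

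The member of the posterior list called lower was Isl1, a LIM homeobox factor of oral epithelium, cranial mesoderm and motor neurons. It ranged from 8.99 to 9.87 in anterior and from 7.78 to 8.45 in posterior arrays (log2 -1.28, SE 0.15, adjusted p = 0.000167, limma). Isl1 did not overlap between the regions, and its second probe set was also called lower. Other large decreases outside the mesenchyme lists included Nat3 (-1.85), Gata3 (-1.81), a zinc finger factor of facial mesenchyme and epithelium, and Cpxm2 (-1.78). Six3 (-1.70), a homeobox factor of the anterior head, Mup5 (-1.60), Dmrta1 (-1.58) and Atp6v1b1 (-1.49) were lower too. Ankrd6 (-1.04) was among the 10 smallest p (adjusted p = 1.88e-06, limma). Posterior readings of Nat3 (3.00 to 3.38), Gata3, Mup5 (4.14 to 4.46) and Dmrta1 (3.58 to 4.63) lay under the array medians, where background can enter. Gata3 read 7.03, 7.79 and 7.46 in anterior arrays 1 to 3 and 5.16 to 5.97 in 4 to 6, against 4.61 to 4.88 in posterior arrays. It differed by -2.60 in the first set and by -1.01 in the second, where it was not called (adjusted p = 0.0682, limma). Six3 was even across sets (-1.71 and -1.69). Its 2 dimmer probe sets did not show the decrease, at 0.11 and -0.10 (adjusted p = 0.373 and 0.55, limma).

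Among 31 factors with known domains along the oral and nasal sides or the arches, 2 were higher and 10 lower, with a median of -0.26. That was 38.7% called, beside 11.8% of all genes. With median centring the counts were 4 and 9, and with quantile normalization repeated 2 and 7. Foxd1, a forkhead factor of facial mesenchyme, was the most changed (log2 1.54, SE 0.26, adjusted p = 0.00246, limma). It ranged from 7.55 to 9.27 in anterior and from 9.25 to 10.34 in posterior arrays, with overlap only between anterior array 2 and posterior array 5. Foxd2, its relative, was lower (-0.96, SE 0.17, adjusted p = 0.00334, limma) but its other probe set gave 0.17 (adjusted p = 0.136, limma). Among the Dlx genes, homeobox factors that pattern the arches, Dlx1 was higher (1.05), while Dlx6 (-0.67), Dlx5 (-0.64) and Dlx3 (-0.46) were lower. The calls of Dlx1, Dlx5 and Dlx6 ended when single arrays were left out, with the highest adjusted p at 0.0708 (without posterior array 6), 0.094 and 0.0783 (both without posterior array 4). Foxf1, a target of hedgehog signals, was lower by -0.69, and without posterior array 6 its adjusted p was 0.0536 (limma).

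HOX genes, which give position along the body axis and are silent in the first arch and frontonasal crest, read low in both regions. Of 14 measured genes 6 were higher and none lower in posterior palate, with a median of 0.21. The share called was 42.9%, beside 11.8% of all genes. With median centring 8 were higher. With quantile normalization repeated 5 were, and Hoxc4 was not called (adjusted p = 0.229, limma). Hoxa2, which specifies the second arch, read 3.05, 3.36, 3.47, 3.25, 3.09 and 3.37 in anterior and 3.95, 3.92, 4.93, 4.21, 3.67 and 4.22 in posterior arrays (log2 0.89, SE 0.17, adjusted p = 0.00512, limma). The groups did not overlap, and all values lay under the array medians of 5.74 to 5.8, where background can enter a reading. Hoxb2 (0.66), Hoxb3 (0.35), Hoxa3 (0.29), Hoxb5 (0.29) and Hoxc4 (0.19) were the others, and the call of Hoxc4 ended with replicate number as a block (adjusted p = 0.06, limma) and, among fits without 1 array, reached 0.104 without posterior array 4. Of the 12 fits without 1 array, 11 ended the call of Hoxc4. Posterior array 3 had the highest Hoxa2 and Hoxb2 (6.96), with Hoxb2 at 5.75 to 6.05 in the other posterior arrays.

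In the retinoic acid pathway, which acts through nuclear receptors, 3 of 18 genes were higher and 3 lower. These were 33.3% of the list, beside 11.8% of all genes. Rxrg, a retinoid X receptor that skeletal muscle also expresses, was 2.78-fold higher (log2 1.47, SE 0.13, adjusted p = 1.28e-05, limma), from 5.41 to 5.90 in anterior and from 6.73 to 7.59 in posterior arrays. Cyp26b1, which degrades retinoic acid, read 9.63, 9.23, 8.93, 9.0, 8.64 and 8.92 in anterior and 8.0, 7.86, 7.56, 7.57, 7.79 and 7.45 in posterior arrays, a 2.55-fold lower level (log2 -1.35, SE 0.15, adjusted p = 6.34e-05, limma). Neither gene overlapped. The retinol carrier Rbp4 was higher (0.95), as was Rarres2 (0.50), while the binding protein Crabp2 (-0.35) and the receptor Rxra (-0.28) were lower. Of the 12 fits without 1 array, 9 ended the call of Crabp2 and 4 that of Rxra. Both reached their highest adjusted p without posterior array 4 (0.0628 and 0.061, limma).

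In the FGF pathway 5 of 30 genes were higher and 3 lower, 26.7% of the list beside 11.8% of all genes. The ligands Fgf5 (1.30), Fgf7 (0.86) and Fgf6 (0.70) and the receptor Fgfr4 (1.16), which is active in muscle progenitors, were higher. Fgfr4 ranged from 4.94 to 5.25 in anterior and from 5.95 to 6.53 in posterior arrays (SE 0.09, adjusted p = 8e-06, limma), while a dimmer probe set of the gene gave -0.02. Fgf5 lay under the array median in all 12 arrays, at 3.05 to 3.81 and 4.31 to 5.45. Fgfr2, the receptor of epithelium and osteogenic mesenchyme, was lower (-0.57, SE 0.09, adjusted p = 0.00148, limma), and Etv5, a transcriptional target of FGF signals, was lower by -0.46 with a call that ended under the replicate block (adjusted p = 0.0595, limma) and reached adjusted p = 0.0675 without posterior array 2.

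In the BMP pathway 2 of 35 genes were higher and 6 lower, 22.9% of the list beside 11.8% of all genes. With median centring 4 were higher and 4 lower. The extracellular antagonist Grem1 ranged from 5.21 to 6.25 in anterior and from 6.70 to 7.20 in posterior arrays (log2 1.12, SE 0.16, adjusted p = 0.000845, limma). A second antagonist, Sostdc1, ran the other way, from 10.28 to 11.26 in anterior and from 9.79 to 10.10 in posterior arrays (log2 -0.97, SE 0.15, adjusted p = 0.000963, limma). The ligand Bmp6 was 1.95-fold lower (log2 -0.96, SE 0.12, adjusted p = 0.000242, limma). Bmp4, another ligand named after its value was seen, differed by 0.68 without a call (adjusted p = 0.0627, limma). The matrix protein Smoc2 was higher (0.39), and the inhibitor of differentiation Id4 (-0.37) and the activin antagonist Fst (-0.53) were lower, the latter losing its call with median centring.

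In the WNT pathway 2 of 58 genes were higher and 10 lower, 20.7% of the list beside 11.8% of all genes. Over all genes 4.69% were higher and 7.11% lower. The list's counts were 8 and 7 with median centring, 4 and 7 with quantile normalization repeated, and 5 and 13 with the replicate block. The ligand Wnt2 read 6.98 to 8.14 in anterior and 6.39 to 6.77 in posterior arrays (log2 -1.04, SE 0.17, adjusted p = 0.00175, limma). The agonist Rspo1 (-0.91), the secreted antagonist Sfrp4 (-0.84) and the receptor Fzd5 (-0.62) were lower. Fzd5 ranged only from 7.34 to 7.61 and from 6.78 to 7.02, which gave a small adjusted p of 3.37e-05 (limma), although another probe set of it gave 0.03. Wnt5a, a ligand of the anterior palate, was lower by -0.82 (adjusted p = 0.0416, limma), by -1.30 in arrays 1 to 3 and by -0.34 in arrays 4 to 6. Its adjusted p was 0.085 without anterior array 1, and that of its receptor Ror1 (-0.61) was 0.0709 without posterior array 6 (limma). Fits without 1 array ended the call of Wnt5a in 8 cases and that of Ror1 in 5. Axin2, a general target of WNT signals named after its value was seen, differed by -0.09 (95% interval -0.39 to 0.21, adjusted p = 0.655, limma).

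Hedgehog signalling genes gave 1 higher and 3 lower calls among 17. That was 23.5% called, beside 11.8% of all genes (4.69% higher and 7.11% lower). Scube3, a secreted protein that helps to release the ligand, was 1.91-fold lower (log2 -0.93, SE 0.15, adjusted p = 0.00135, limma), by -0.93 in each set. The transcription factors Gli3 (-0.39) and Gli2 (-0.31) were lower by small amounts without overlap between the regions, and Scube1 was higher by 0.23, a call that ended without anterior array 3 (adjusted p = 0.0616, limma). Shh itself (-0.27) and the target genes Ptch1 (-0.12) and Gli1 (-0.16), named after their values were seen, were not called. Among 22 genes of TGF-beta and activin signalling 2 were higher and 3 lower, against 2 and 1 with either other scaling. As deposited 22.7% of this list was called, beside the same shares of all genes. The latent binding protein Ltbp2 (1.19, SE 0.20, adjusted p = 0.00247, limma) and the matrix protein Tgfbi (0.41) were higher, and Acvr1b (-0.42), Acvr2b (-0.27) and Smad3 (-0.22) were lower. The calls of Acvr2b and Smad3 ended in 5 and 1 of the fits without 1 array. Their highest adjusted p came without posterior array 6 (0.0686 and 0.0552, limma). Tgfbr2, the floxed gene, differed by -0.07 (adjusted p = 0.712, limma).

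The NOTCH pathway gave 1 higher and 2 lower calls among 19, led by Dlk1, a ligand-like regulator of muscle and fat precursors, at log2 0.93 (1.90-fold higher, SE 0.13, adjusted p = 0.000489, limma). The IGF axis gave 1 lower call among 14, the receptor Igf1r (-0.54). The shares called were 15.8% of NOTCH and 7.14% of IGF genes, beside 11.8% of all genes. Of 43 guidance genes 5 were higher and 7 lower, 27.9% of the list. Netrin, Ntn1, ranged from 8.26 to 8.69 in anterior and from 9.13 to 9.61 in posterior arrays (log2 0.93, SE 0.10, adjusted p = 5.44e-05, limma), and the semaphorin Sema3c (0.67), the ephrin receptor Epha3 (0.76) and the neurotrophin Bdnf (0.56) were higher as well. The semaphorin Sema3e (-1.04, SE 0.18, adjusted p = 0.00274, limma) and the repellent Slit2 (-0.70) were lower. All of these except Epha3 had groups that did not overlap.

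Tendon and skeletal genes moved in both directions. Of 17 tendon genes 6 were higher and 4 lower, with a median of 0.29. The share called was 58.8%, beside 11.8% of all genes. The proteoglycan keratocan, Kera, read 6.97, 7.22, 6.89, 6.17, 5.89 and 6.07 in anterior and 9.41, 9.68, 10.18, 9.08, 9.83 and 9.21 in posterior arrays, 8.17-fold higher (log2 3.03, SE 0.25, adjusted p = 8.61e-06, limma). It was the most changed gene of the named lists outside muscle apart from Alx1. Thrombospondin Thbs4, at the junction of muscle and tendon, was higher (1.68, SE 0.19, adjusted p = 8.21e-05, limma), as were Cilp (0.62) and, at 0.42 (adjusted p = 0.0363, limma), the tendon factor Scx, named after its value was seen. Proteoglycans related to Kera differed in either direction. Fmod was lower by -1.0 (SE 0.10, adjusted p = 2.49e-05, limma), as it was in all 5 of its other probe sets, and Dcn by -0.62, while Aspn was higher (0.71, adjusted p = 0.0403, limma). The collagen Col14a1 was also lower (-0.62). In smooth muscle and pericyte genes 2 of 17 were higher, Des (1.89) and Acta2 (1.26), both of which early skeletal muscle expresses, and 2 were lower, Rgs5 (-0.51) and Mcam (-0.35). These calls were 23.5% of the list, beside 11.8% of all genes. The call of Rgs5 ended in 8 fits without 1 array, up to adjusted p = 0.0971 without posterior array 4 (limma).

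Of 18 bone genes 4 were higher and 2 lower, 33.3% of the list beside 11.8% of all genes. With median centring 8 were higher and 2 lower. Ibsp, bone sialoprotein, ranged from 10.61 to 12.75 in anterior and from 12.65 to 13.31 in posterior arrays (log2 1.44, SE 0.36, adjusted p = 0.0231, limma), with anterior array 6 among the posterior values, and without posterior array 4 its adjusted p was 0.052 (limma). Phex (1.22) and Ifitm5 (0.87), genes of osteoblasts and osteocytes, were called as deposited. Both lost the call with the replicate block (adjusted p = 0.0526 and 0.0527, limma). Their calls also ended in 10 and 8 fits without 1 array, up to adjusted p = 0.0985 and 0.094 without posterior array 4 (limma). The osteoclast enzymes split, with Ctsk higher (0.83) and Acp5 lower (-0.64). Cartilage genes gave 2 lower calls among 21, Sox5 (-0.76) and Sox9 (-0.55), the latter with adjusted p = 0.0754 without posterior array 6. These calls were 9.52% of the list, beside 11.8% of all genes. Mature cartilage genes spread widely among anterior arrays: the list mean was 8.63 in anterior array 2 and 6.46 to 7.26 in the other anterior arrays, against 6.61 to 7.23 in posterior arrays, so that Col2a1 (-0.17, SE 0.51) had little precision. Among 33 collagens and matrix genes 3 were higher, Col25a1 (0.88), Col8a1 (0.73) and Aspn (0.71), and 2 lower, Frem2 (-0.69) and Col18a1 (-0.38), a share of 15.2%. Without posterior array 2 the adjusted p of Col8a1 was 0.0515 and that of Aspn 0.0855 (limma). Fits without 1 array ended the call of Aspn in 8 cases and that of Col8a1 in 1.

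**Figure D4:**
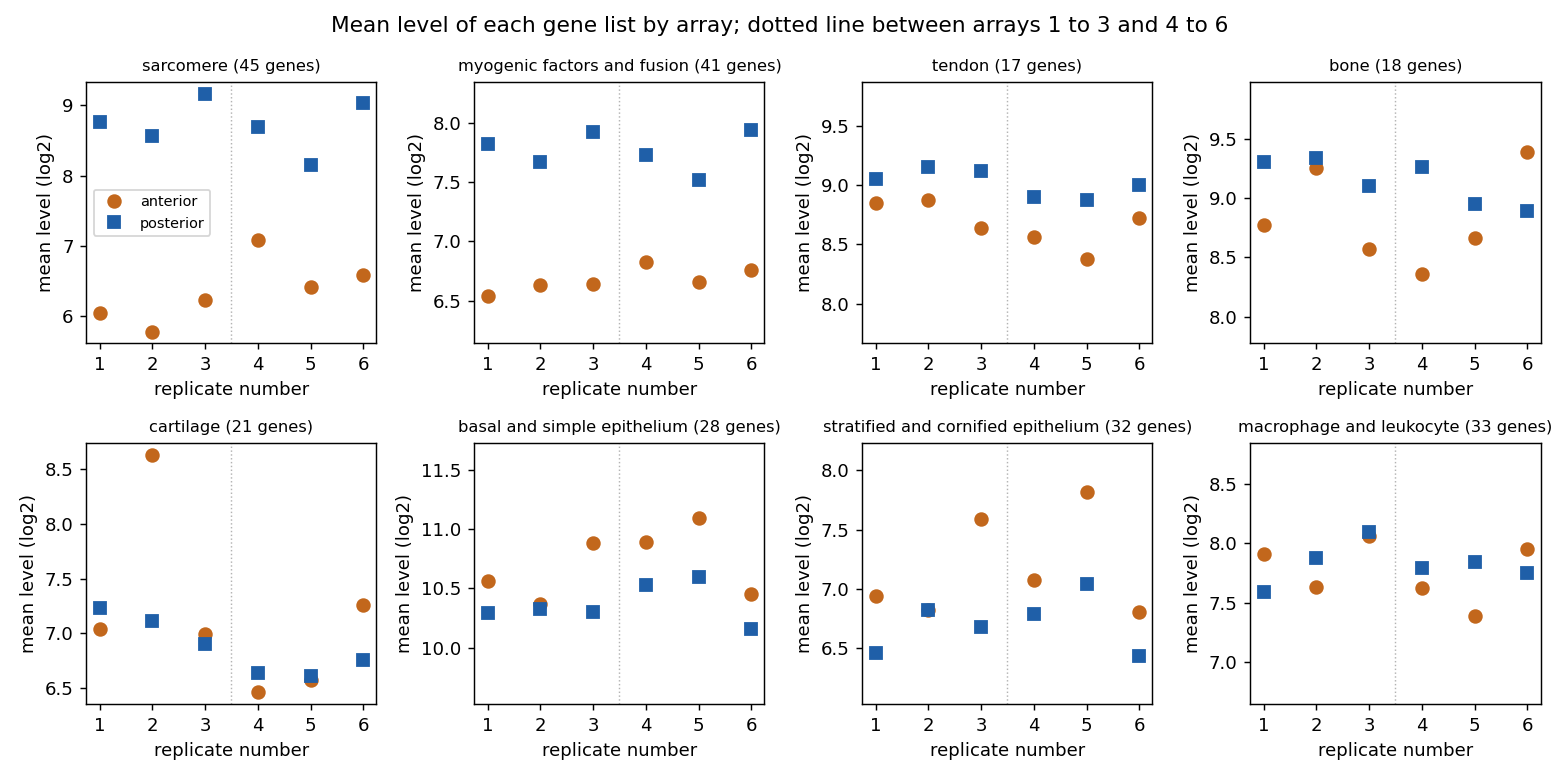
Mean level (log2) over the measured genes of 8 lists in each array, by replicate number, with anterior arrays as orange circles and posterior arrays as blue squares; each panel has its own level range, of equal or similar width. The sarcomere means of the regions lie far apart in all 6 pairs, the epithelium means are equal or higher in anterior arrays, and anterior array 2 stands above the rest for cartilage at 8.63.

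Every called gene of the basal and stratified epithelium lists was lower in posterior palate as deposited. Of 28 genes of basal and simple epithelium 10 were lower and none higher (6 and 7 lower with the other scalings), with a median of -0.33. Of 32 genes of stratified and cornified epithelium 9 were lower and none higher (7 and 8), with a median of -0.48. The shares called were 35.7% and 28.1%, beside 11.8% of all genes. With the replicate block 13 and 16 were lower and 1 stratified gene was higher. Within either set of 3 and 3, at most 1 gene of each list was called. Col17a1, the collagen that anchors basal cells, ranged from 10.35 to 11.11 in anterior and from 8.90 to 9.93 in posterior arrays (log2 -1.08, SE 0.18, adjusted p = 0.002, limma), without overlap. Laminin chain Lamb3 was lower by -0.93 (SE 0.15, adjusted p = 0.00188, limma), desmoplakin, Dsp, by -0.55, and the basal keratin Krt14 by -0.65. Itgb4 (-0.63) and Pkp1 (-0.73) were called as deposited, with adjusted p = 0.0812 and 0.0552 without posterior array 6 (limma). Fits without 1 array ended the call of Itgb4 in 7 cases and that of Pkp1 in 1. Epcam (-0.27) and Krt5 (-0.57) were not called (adjusted p = 0.13 and 0.0592, limma), and every anterior and posterior array read above 11 for both.

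Sprr1a, a precursor of the cornified envelope, read 8.16, 8.21, 9.76, 8.10, 9.82 and 7.36 in anterior and 6.29, 6.77, 6.69, 6.34, 6.90 and 5.81 in posterior arrays, 4.29-fold lower (log2 -2.10, SE 0.38, adjusted p = 0.00378, limma). The groups did not overlap, and anterior arrays 3 and 5 were highest. The same arrays were highest for Krt6b, a keratin of the oral lining and of stressed epithelium, at 8.23 and 8.78 against 5.45 to 6.28 in the other anterior and 4.72 to 5.44 in the posterior arrays. Krt6b differed by -1.70 (SE 0.50, adjusted p = 0.0423, limma), and 9 of the 12 fits without 1 array ended its call, up to 0.0872 without posterior array 6. Anterior arrays 3 and 5 also had the highest means of the stratified list (7.59 and 7.82, against 6.81 to 7.08). Krtdap (-1.33), Krt2 (-1.04), Krt6a (-0.86) and Dsc3 (-0.81) were the other stratified genes with large calls, and those of Krt2, Krt6a and Dsc3 ended without an array (adjusted p = 0.0635 without anterior array 3, and 0.0844 and 0.0524 without posterior array 6, limma). Fits without 1 array ended the call of Krt2 in 7 cases, Krt6a in 8 and Dsc3 in 1. Krt2 read 3.74 to 5.72 in anterior and 3.36 to 3.54 in posterior arrays, under the array medians, as did Krt6b in posterior arrays.

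The serpins Serpinb7 (-2.01, SE 0.15) and Serpinb11 (-1.59, SE 0.15), protease inhibitors of epithelium, differed evenly. Serpinb7 read 7.86 to 8.48 in anterior and 5.55 to 6.59 in posterior arrays (adjusted p = 6.36e-06, limma). Ambn, ameloblastin of tooth enamel, read 7.95, 7.16, 6.71, 6.64, 6.62 and 7.57 in anterior and 4.99, 5.00, 4.81, 5.10, 5.09 and 4.81 in posterior arrays (log2 -2.14, SE 0.21, adjusted p = 2.42e-05, limma). All posterior values lay under the array medians, where background can enter. Of the other 16 tooth and enamel genes 1 was higher, Nkx2-3 (0.39), and 2 were lower, Dlx3 (-0.46) and Eda (-0.28), the latter losing its call with the block (adjusted p = 0.0643, limma) and reaching 0.0749 without posterior array 6. The whole tooth list had 1 higher and 3 lower calls as deposited, 23.5% of members beside 11.8% of all genes. The counts were 4 and 2 with median centring, and 1 and 2 with quantile normalization repeated. Eda was not called with either (adjusted p = 0.0983 and 0.122, limma). The enamel matrix gene Amelx, named after its value was seen, differed by 0.22 (adjusted p = 0.094, limma).

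In the lists of nasal, salivary, and pituitary and brain genes 13%, 11.8% and 8.7% of members were called, close to the 11.8% of all genes. Of 23 nasal and airway epithelium genes 3 were lower and none higher, the secreted proteins Reg3g (-0.92) and Bpifa1 (-0.75) and the epithelial factor Sox2 (-0.38), against 2 higher and 2 lower with median centring. Bpifa1 read 12.10 or more in every anterior and 11.54 or more in every posterior array, and the ciliary factor Foxj1 differed by -0.43 without a call (adjusted p = 0.157, limma). Fits without 1 array ended the call of Bpifa1 in 4 cases, up to adjusted p = 0.0605 without posterior array 5 (limma). They ended the call of Sox2 in 8, up to adjusted p = 0.0955 without posterior array 6 (limma). Among 17 salivary and taste genes Elf5 (-0.80) and Prox1 (-0.80) were lower. Prox1 lost its call in 8 fits without 1 array, up to adjusted p = 0.0736 without posterior array 2 (limma). Of 23 pituitary and brain genes Isl1 and the pituitary hormone subunit Cga (-0.80) were lower. Neurod1, a neuronal factor, ranged from 4.27 to 9.99 in anterior arrays and was not called (-1.58, adjusted p = 0.289, limma).

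The endothelium, macrophage and leukocyte, and erythroid lists had 11.1%, 12.1% and 12.5% of members called, close to the 11.8% of all genes. The Schwann cell and glia list had 6.25%. In endothelium 1 of 27 genes was higher, Pdpn of lymphatic and other cells (0.24), and 2 were lower, Vwf (-1.03, SE 0.17, adjusted p = 0.00175, limma) and Prox1, while Pecam1 (-0.17, adjusted p = 0.654) and Cdh5 (-0.26, adjusted p = 0.395, limma) were not called. Of 33 macrophage and leukocyte genes 4 were higher (7 with median centring) and none lower. The complement genes C1qb (0.62, SE 0.11, adjusted p = 0.0028, limma) and C1qa (0.60), made by resident macrophages, did not overlap between the regions, and C1qc (0.46) and the receptor Fcgr3 (0.44) were also called, C1qc not without posterior array 2 (adjusted p = 0.0561, limma). Csf1r, the receptor that defines macrophages, differed by 0.29 without a call (adjusted p = 0.0981, limma). In the erythroid list the membrane protein Ank1, which muscle also makes, was higher (0.93, SE 0.11, adjusted p = 0.000126, limma), carbonic anhydrase Car2 was lower (-0.86, and adjusted p = 0.0695 without posterior array 2), and embryonic globin Hbb-y differed by 0.03 (adjusted p = 0.924, limma). Of 16 Schwann cell and glia genes only Sostdc1, which is shared with the BMP list, was called.

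Cell cycle genes gave 3 higher and 3 lower calls among 43, a share of 14% beside 11.8% of all genes. The split was 4 and 1 with median centring, where Mcm6 and Bub1b were not called (adjusted p = 0.0756 and 0.138, limma), and 2 and 2 with quantile normalization repeated. The proliferation marker Mki67, named after its value was seen, differed by -0.25 (adjusted p = 0.252, limma). The cyclin Ccne2 (0.60) and the inhibitors Cdkn2a (0.82) and Cdkn2c (0.38) were higher, and Ccnd2 (-0.40), Mcm6 (-0.26) and Bub1b (-0.21) were lower. Cdkn2a read 3.74 to 4.72 in anterior and 4.37 to 5.65 in posterior arrays, under the array medians, where background can enter. With quantile normalization repeated Cdkn2a was not called (adjusted p = 0.0527, limma). Calls of Ccne2 and Cdkn2a (adjusted p = 0.0547 and 0.0627) and of Bub1b (0.0793) ended without posterior array 6, and that of Mcm6 without posterior array 4 (0.0675, limma). Such fits ended the call of Ccne2 in 2 cases, Cdkn2a in 5, Bub1b in 7 and Mcm6 in 5. Of 31 immediate early and stress genes, which respond to handling of tissue, 1 was higher (Nr4a3, 0.28) and 1 lower (Jun, -0.40), 6.45% beside 11.8% of all genes. With median centring 3 were higher and none lower, and Jun was not called (adjusted p = 0.0558, limma). Of 21 genes of hypoxia and glycolysis 7 were lower and none higher (5 lower with either other scaling), with a median of -0.15. These were 33.3% of the list, beside 11.8% of all genes. Aldoc, an aldolase of brain and other tissue, read 9.94 to 10.63 in anterior and 8.92 to 9.37 in posterior arrays, 2.24-fold lower (log2 -1.16, SE 0.12, adjusted p = 4.09e-05, limma). The phosphofructokinases Pfkp (-0.70) and Pfkl (-0.48), hexokinase Hk2 (-0.50), Car9 (-0.53) and Ndrg1 (-0.51) were lower too, and the call of Pfkl ended without posterior array 6 (adjusted p = 0.0729, limma).

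**Figure D5:**
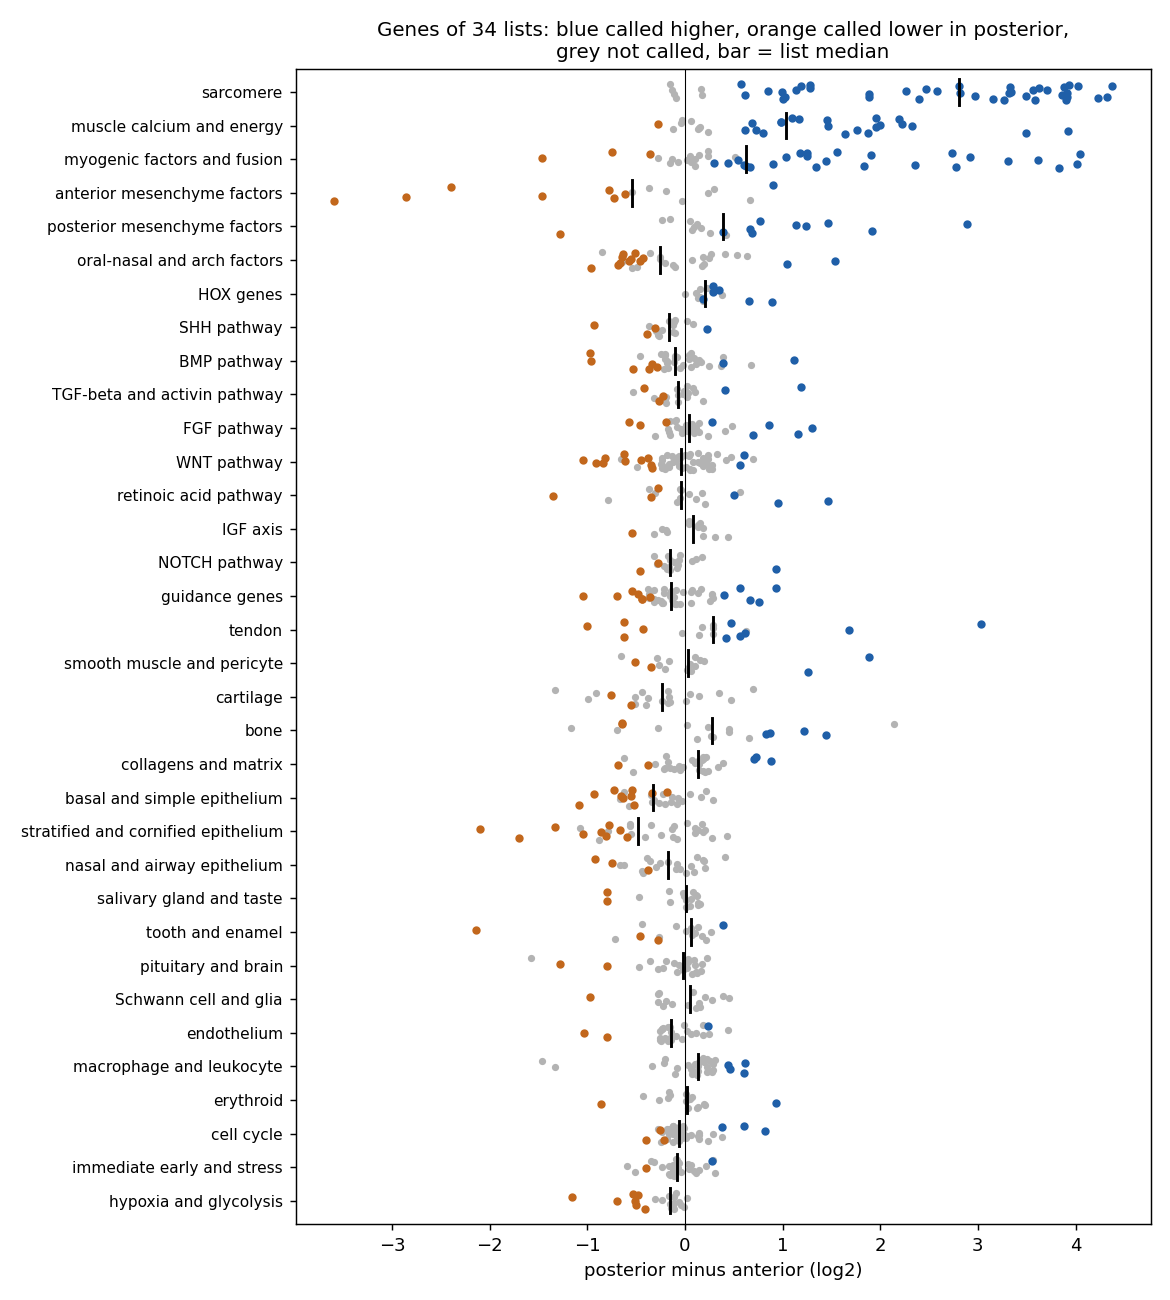
Posterior minus anterior difference (log2) of every measured gene in 34 lists, with one point per gene, in blue where called higher, orange where called lower and grey where not called; vertical bars mark list medians. The 3 muscle lists at the top reach 4.37 with medians of 2.81, 1.04 and 0.63, Alx1, Msx1 and Shox2 extend the anterior list to -3.59, and called epithelial genes all lie left of 0.

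Probe sets of a gene did not always give the same result. Of 171 called genes that the naming rule chose, 87 had another probe set. For 48 of them another was called in the same direction when every probe set was tested, for none was another called in the opposite direction, and for 21 another had the opposite sign without a call. These counts leave out genes named after their values were seen, among them Atp2a2, which had 2 other probe sets called in the opposite direction. Median centring and repeated quantile normalization each ended 15 named calls, all under 2-fold, and reversed none.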

How the data were processed

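Control anterior and posterior palate RNA was measured on 12 arrays, 6 a region, grouped by title. The deposited values are log2 levels; the submitters' processing notes name RMA, without a version, which corrects background, equalises array distributions and summarises probes, and so takes out any shift common to most genes. The number of arrays limits precision. No scanner file or detection call entered. Of 45101 probe sets 64 were controls and were left out; of the other 45037, 34945 had 1 gene symbol in the platform annotation, 932 several and 9160 none. The brightest probe set over the 12 arrays stood for each of 18193 genes (18032 matched to RefSeq). Posterior minus anterior was fitted in limma 3.58.1 (R 4.3.3, lmFit and eBayes, 2-sided, 10 residual degrees of freedom, no covariate), with p-values adjusted by Benjamini-Hochberg across the 18193 genes and called below 0.05. The fit was tested on simulated data. Figures were drawn with matplotlib 3.10.9.

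The markers and 35 gene lists were chosen with earlier results of these data known, so their counts are descriptions. Of 926 listed genes 57 had no probe set of a single symbol. Named genes are the 7 markers, the 15 largest non-overlapping calls in each direction, up to 6 called members a list (or 2 with the smallest p), the 10 smallest p and members whose call differed from an earlier fit; predicted genes were passed over. Others are marked as named after their values were seen.

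Deviations from the region means correlated at 0.107 to 0.431 between arrays of equal number, above 0.1 in all 6 pairs, so the numbers were taken to pair the samples, from the data and not from the labels; 3 of 6 posterior arrays correlated best with their own number. Equal numbers also share an array set. Unless a block is named, the SEs and p-values given come from fits without a block and do not use this pairing. The main fit called 2148 genes, against 3147 with a fixed and 3826 with a random replicate block. Alternatives were replicate and set blocks, each set alone, all 18 arrays, other probe set choices, scalings, variance models, weights, a dim filter, a sex covariate, a stricter threshold, and leaving out each array or pair.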

Additional observations from a re-analysis of the deposited data

Results flagged for a closer look

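In groups of 6 arrays, the highest or lowest array was set apart from the others where its gap to the nearest exceeded the 95% critical share of the range in Dixon's test. Of 416 groups examined 19 did so, and chance sets apart about 1 in 20. The causes were not tested.

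Anterior array 4 read highest of its group for the muscle genes Ckm (7.40, others 5.64 to 6.26) and Lmod3 (3.99, others 3.06 to 3.38) and lowest for Bmp6 (7.75, others 8.20 to 8.45) and Fzd5 (7.34, others 7.52 to 7.61). Anterior array 2 was highest for the mean of the cartilage list (8.63, others 6.46 to 7.26) and for Foxc2 (7.81, others 5.23 to 6.14). Anterior array 6 was highest for the mean of the tooth and enamel list (6.27, others 5.74 to 5.83) and lowest for the cyclin Ccnd2 (12.84, others 13.12 to 13.23), and anterior array 5 was lowest for Foxd2 (6.5, others 7.21 to 7.57).

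Posterior array 3 was highest for Hoxb2 (6.96, others 5.75 to 6.05), for the mean of the HOX list (4.98, others 4.69 to 4.77) and for Wnt5a (9.31, others 8.76 to 8.96). Posterior array 6 was lowest for the basal anchoring collagen Col17a1 (8.90, others 9.74 to 9.93), for Col18a1 (9.19, others 9.42 to 9.53) and for the osteoclast enzyme Acp5 (6.44, others 6.81 to 7.0). Posterior array 1 was lowest for Nr2f1 (10.81, others 10.95 to 11.03) and C1qa (9.16, others 9.39 to 9.53), posterior array 2 highest for Slit2 (9.67, others 9.23 to 9.37), and posterior array 5 highest for Pfkp (7.91, others 7.47 to 7.63).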

How the results depend on the processing

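Called, higher and lower genes numbered 2148, 854 and 1294. They were 3826, 1481 and 2345 with a random replicate block (correlation 0.2374), and lower calls 2065 with a fixed replicate block and 2011 with a set block. Fewer arrays gave 481, 294 and 187 (arrays 1 to 3) and 317, 159 and 158 (arrays 4 to 6, 143 of at least 2-fold), and sharing the spread with the mutants 685, 303 and 382. Leaving out dim genes left 1429 calls, 342 higher, 80 of at least 2-fold. Median centring gave 1679 higher and 654 lower, repeated quantile normalization 799 lower, and a threshold of 0.01 gave 748, 357 and 391. Without 1 array there were 1274 (posterior 6) to 2634 (anterior 6) calls, 574 to 1085 higher and 700 to 1549 lower; calls fell over 1.5 times without posterior 4 (1404) or 6, and lower calls also without posterior 2 (846). Without 1 pair there were 1016 (number 4) to 1604 calls, 469 to 733 higher and 547 to 932 lower; counts of at least 2-fold ranged from 200 to 246 over both kinds of omission, against 230. The replicate block ended 5 named calls (Hoxc4, Etv5, Phex, Ifitm5, Eda) and added Kdm5c (adjusted p = 0.0358, limma). Of 171 named calls 38 ended without some 1 array, and no named difference reversed under any alternative. Of 173 named genes 56 kept direction and call in every alternative. Named calls ended for 82 genes in arrays 1 to 3 alone and for 99 in arrays 4 to 6 alone. The fit of all 18 arrays ended 72, and the threshold of 0.01 ended 62. The causes were not tested. Levels near or under the array medians, as for HOX genes, may hold background.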

Other observations

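Genes outside the lists also differed, and those given here, other than Hjv, Tceal7, Prr32 and Dpt, were named after their values were seen. Several are known from striated muscle: the Z-disc proteins Myot (log2 3.37, adjusted p = 6.36e-06) and Csrp3 (2.75, adjusted p = 2.42e-05), the kinase Srpk3 (3.21, adjusted p = 6.36e-06) and the small protein Smpx (3.24, adjusted p = 1.55e-05) were all higher in posterior palate without overlap (limma). Hjv, hemojuvelin, which is made in muscle and liver, was higher by 2.74 (adjusted p = 1.88e-06, limma). Tceal7 and Prr32 were higher by 4.37 and 3.46.

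Secreted and connective tissue genes were among the other increases. The cytokine Il17b averaged 6.25 ± 0.39 in anterior and 9.01 ± 0.52 in posterior arrays (SD, n = 6 each), a log2 difference of 2.76 (adjusted p = 1.03e-05, limma). Dermatopontin, Dpt, was higher by 2.70, the matrix protein Cthrc1 by 1.36, the hormone Crh by 2.70, with anterior arrays at 3.39 ± 0.15, and the peptide Grp by 1.58. Pax1, a paired box factor of pharyngeal pouches and sclerotome, was higher by 1.33 (adjusted p = 7.93e-05, limma), and Nnmt by 1.5 (adjusted p = 6.25e-06, limma).

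Among the decreases were Sp8, a zinc finger factor of the frontonasal region, at 6.24 ± 1.18 in anterior and 4.15 ± 0.87 in posterior arrays (log2 -2.09, adjusted p = 0.022, limma, with overlap), and the forebrain and olfactory factor Fezf1 (-1.08, adjusted p = 0.0466, limma). The chemokine Cxcl14 (-1.05) and the oxytocin receptor Oxtr (-1.09) were lower without overlap between the regions, and the epithelial genes Serpinb2 (-1.78) and Ly6d (-1.38) were lower with overlap.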
